A study of Mus musculus with 4 samples.

Results

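The mitochondrial respiratory chain genes examined here were the nuclear protein-coding genes of the mouse whose RefSeq symbol begins with Nduf, Sdh, Uqcr, Cox4 to Cox8 or Atp5. The rule used names alone and found 100 genes among 21631 protein-coding genes on the autosomes and X. They comprised 41 complex I genes, 4 of complex II, 8 of complex III, 18 of complex IV, 17 of complex V and 12 assembly factors named Ndufaf or Sdhaf. What was measured was open chromatin at these genes by ATAC-seq, in which a transposase cuts and tags accessible DNA.

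The cells were CD4 T cells carrying TCRSMARTA, a transgenic T cell receptor that recognises the GP61 peptide. All groups shared this transgene, a host that bore a B16-GP61 melanoma expressing the peptide, and treatment of the host with cytoxan, a drug that depletes lymphocytes. Naive cells were transferred into these mice and sorted on day 11 from the tumor-draining lymph node (tdLN). The WT group had intact TOX, a DNA-binding protein known from T cell exhaustion, and its sort took cells that were Ly5.1+ Ly5.2+, PD1hi, LAG3hi and CD39hi. The KO group lacked TOX, and its sort took Ly5.1+ Ly5.2- cells that were PD1lo, LAG3lo and CD39lo. Each group had a first and a second library (KO-1 and KO-2, WT-1 and WT-2), and lists of 4 values below run from KO-1 to WT-2 with the KO pair first. Genotype, sort gate and congenic marker changed together and cannot be told apart in any difference between the groups. Which part of Tox was deleted, the ages of the animals and whether a group's libraries came from separate animals are not stated in the labels. With 2 libraries against 2, the smallest exact two-sided permutation p is 0.33, so all comparisons of genotypes below are descriptions.

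As background, complex I (NADH dehydrogenase, the Nduf genes) and complex II (succinate dehydrogenase, the Sdh genes) pass electrons to ubiquinone, complex III (the Uqcr genes) passes them to cytochrome c, and complex IV (cytochrome c oxidase, the Cox genes) passes them to oxygen. Complex V, the ATP synthase encoded by the Atp5 genes, uses the resulting proton gradient to make ATP. Most subunits are encoded in the nucleus, and activated T cells are known to increase their mitochondrial mass as they divide. Nuclear factors described as regulators of these genes include NRF1, the ETS-family factor GABP, YY1 and the estrogen-related receptors (ERR).

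A gene was called occupied in a library when a region built from overlapping peaks, with a peak of that library in it, lay within 1 kb of either end of the gene's RefSeq interval. Its strength was the percentile of the peak's fold enrichment in that library's own list, so that 90 marks a peak stronger than about 90% of the list. The fold is the authors' own value for each peak. By mean percentile over the 4 libraries, the 5 strongest gene-end peaks among the members were those of Cox7c, Atp5b, Ndufaf7, Ndufb4 and Ndufa5. Their promoters are shown because they are the open end of the range, and those of Cox7b2 and Cox8b because they are tissue-restricted isoforms with no peak at the gene ends in any library. Each sequence is the 250 bases before the annotated start, written 5′ to 3′ on the strand of the gene, from RefSeq on GRCm38.p6. Capitals mark motif letters on either strand. NRF1 was searched as GCGCANGCGC, where N is any base, and the estrogen-related receptors as AAGGTCA. GABP and its ETS relatives were searched as CCGGAAG. The letters for YY1 were AAGATGG. Factors of the SP family, common at housekeeping promoters, were searched as GGGCGG. The cyclic AMP response element (CRE) was searched as TGACGTCA. The CCAAT box and the TATA box (TATAAA) completed the set, and only motifs found in these bases appear as capitals.
Cox7c: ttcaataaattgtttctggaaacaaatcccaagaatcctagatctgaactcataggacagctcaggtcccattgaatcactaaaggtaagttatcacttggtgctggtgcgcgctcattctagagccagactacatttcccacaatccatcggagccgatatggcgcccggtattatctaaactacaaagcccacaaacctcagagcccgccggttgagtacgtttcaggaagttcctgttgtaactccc
Atp5b: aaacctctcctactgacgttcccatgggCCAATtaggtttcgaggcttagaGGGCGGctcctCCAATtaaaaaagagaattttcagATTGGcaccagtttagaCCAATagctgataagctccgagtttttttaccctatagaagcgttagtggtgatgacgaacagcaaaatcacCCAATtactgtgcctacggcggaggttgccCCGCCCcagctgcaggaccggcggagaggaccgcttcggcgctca
Ndufaf7: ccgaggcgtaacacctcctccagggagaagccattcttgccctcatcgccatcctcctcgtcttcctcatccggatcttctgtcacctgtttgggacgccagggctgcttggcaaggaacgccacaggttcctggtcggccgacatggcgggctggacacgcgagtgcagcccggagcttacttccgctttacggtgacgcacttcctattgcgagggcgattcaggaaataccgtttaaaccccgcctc
Ndufb4: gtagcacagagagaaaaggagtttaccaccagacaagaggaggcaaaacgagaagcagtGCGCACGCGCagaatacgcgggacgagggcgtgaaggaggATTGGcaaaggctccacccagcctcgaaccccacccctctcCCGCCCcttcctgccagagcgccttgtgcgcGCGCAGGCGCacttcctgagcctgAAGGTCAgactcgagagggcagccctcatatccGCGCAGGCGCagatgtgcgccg
Ndufa5: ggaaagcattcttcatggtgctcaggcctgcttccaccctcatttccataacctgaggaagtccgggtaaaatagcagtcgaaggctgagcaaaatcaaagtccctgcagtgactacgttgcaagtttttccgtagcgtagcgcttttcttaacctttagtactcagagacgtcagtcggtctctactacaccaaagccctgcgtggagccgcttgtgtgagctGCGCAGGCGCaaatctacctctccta
Cox7b2: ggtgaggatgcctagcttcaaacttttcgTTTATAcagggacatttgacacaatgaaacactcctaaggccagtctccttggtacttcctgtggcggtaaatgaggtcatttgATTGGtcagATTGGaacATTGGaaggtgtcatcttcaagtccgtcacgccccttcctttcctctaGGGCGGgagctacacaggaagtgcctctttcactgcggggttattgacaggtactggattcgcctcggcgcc
Cox8b: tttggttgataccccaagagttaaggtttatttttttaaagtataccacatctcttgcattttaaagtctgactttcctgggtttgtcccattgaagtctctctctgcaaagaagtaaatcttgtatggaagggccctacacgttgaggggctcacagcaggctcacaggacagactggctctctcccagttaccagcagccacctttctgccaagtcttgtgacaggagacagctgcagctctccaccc

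The coordinates, in the same order, were chr13:86046796-86047045 on the minus strand, chr10:128083057-128083306 on the plus strand, chr17:78936885-78937134 on the plus strand, chr16:37654369-37654618 on the minus strand, chr6:24527691-24527940 on the minus strand, chr5:71548206-71548455 on the minus strand and chr7:140900447-140900696 on the minus strand. No motif was shared by all 5 promoters of these strong peaks. Atp5b, the beta subunit that carries the catalytic sites of the ATP synthase, had 5 CCAAT and 2 SP matches. Ndufb4, an accessory subunit of complex I, had 3 NRF1 matches and 1 match each to ERR, SP and CCAAT. Ndufa5, another accessory subunit, had 1 NRF1 match. Cox7c and Ndufaf7 had no match in the printed bases. The unoccupied Cox7b2 promoter also held 3 CCAAT, 1 SP and 1 TATAAA match, and Cox8b held none in these bases. A match in the printed bases thus did not separate occupied from unoccupied genes in these examples. With the 50 bases after the start taken in, Cox7c had a YY1 match and Cox8b a TATAAA match. Ndufaf7 and Ndufa5 each had an SP match in that longer stretch.

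The KO lists held 43078 and 61773 peaks and the WT lists 56852 and 61489, and no source used here gives the read depth behind them. Merging left 97394 regions, with 26867 of them present in every list. KO-1 had the shortest list. The numbering of the peaks showed that between 2.65% and 3.59% of numbers were absent from a list, so a missing peak is not by itself closed chromatin. Gene ends of CD4 T cell markers such as Cd3e, Cd4 and Lck were occupied for 11 of 11 markers in every library. Gene ends of B cell markers were occupied for 12 of 12 in both WT libraries, against 3 in KO-1 and 4 in KO-2. Ms4a1, Pax5, Cd22, Blk, Blnk, Bank1 and Fcer2a had no gene-end peak in either KO library. Myeloid markers were occupied for 4, 4, 6 and 5 of 10, with Csf1r, Adgre1, Lyz2 and Itgam occupied in none. Each library pooled many cells, so a region open in few cells and a region weakly open in many cannot be told apart.

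Nearly all respiratory chain genes had open chromatin at a gene end in both genotypes. Of the 100 genes, KO-1 had 87 occupied (52.6% of all protein-coding genes), KO-2 had 90 (54.8%), WT-1 had 88 (55.6%) and WT-2 had 90 (56.6%). In all 4 libraries 87 members were occupied, against 50.6% of all genes. Another 8 members were occupied in none (40.1% of all genes) and 5 in some. No member was occupied in both WT libraries while unoccupied in both KO libraries, a pattern that 1.6% of all genes showed, and no member had the reverse pattern, shown by 0.231%. The RefSeq promoter table gave the strand for 74 of the 87. In 74 of 74 the region was at the end of the interval from which the gene is transcribed. Of these, 5 had a region with a peak in every library at the other end too. The shares over all genes were not counted. Atp5d is among the 74 by a region shared with Cbarp, upstream of its annotated start. The region at the gene end was 1110 bp wide at the median, between 513 and 2276 bp.

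The gene-end peaks of the members were strong within each list. Their median percentile was 91.3 and 93.2 in the KO lists and 93.0 and 94.97 in the WT lists. Over all occupied protein-coding genes it was 86.2, 88.5, 88.7 and 89.5 in the same order. By genotype the members' median was 94.0 ± 1.39 (SD, n = 2) in WT and 92.3 ± 1.32 (SD, n = 2) in KO, and that of all genes was 89.1 ± 0.584 and 87.3 ± 1.59. The members thus stood above the all-gene median in each library, and the step between genotypes was of similar size for members and for all genes. Percentiles in lists of different lengths do not measure a change between genotypes. Of the 87 members occupied in every library, 59 had a mean percentile over 90, 36 over 95 and 11 under 80. The upper quartile over all occupied genes lay between 93.8 (KO-1) and 95.3 (WT-2). Many other genes thus also passed 90 in each library. KO-1 was the library with the lowest percentile for 55 of the 87 and WT-2 for 2. KO-1 also had the lowest all-gene median, 86.2. Neither set of counts was made over all genes, so they do not set the members apart.

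**Figure D1:**
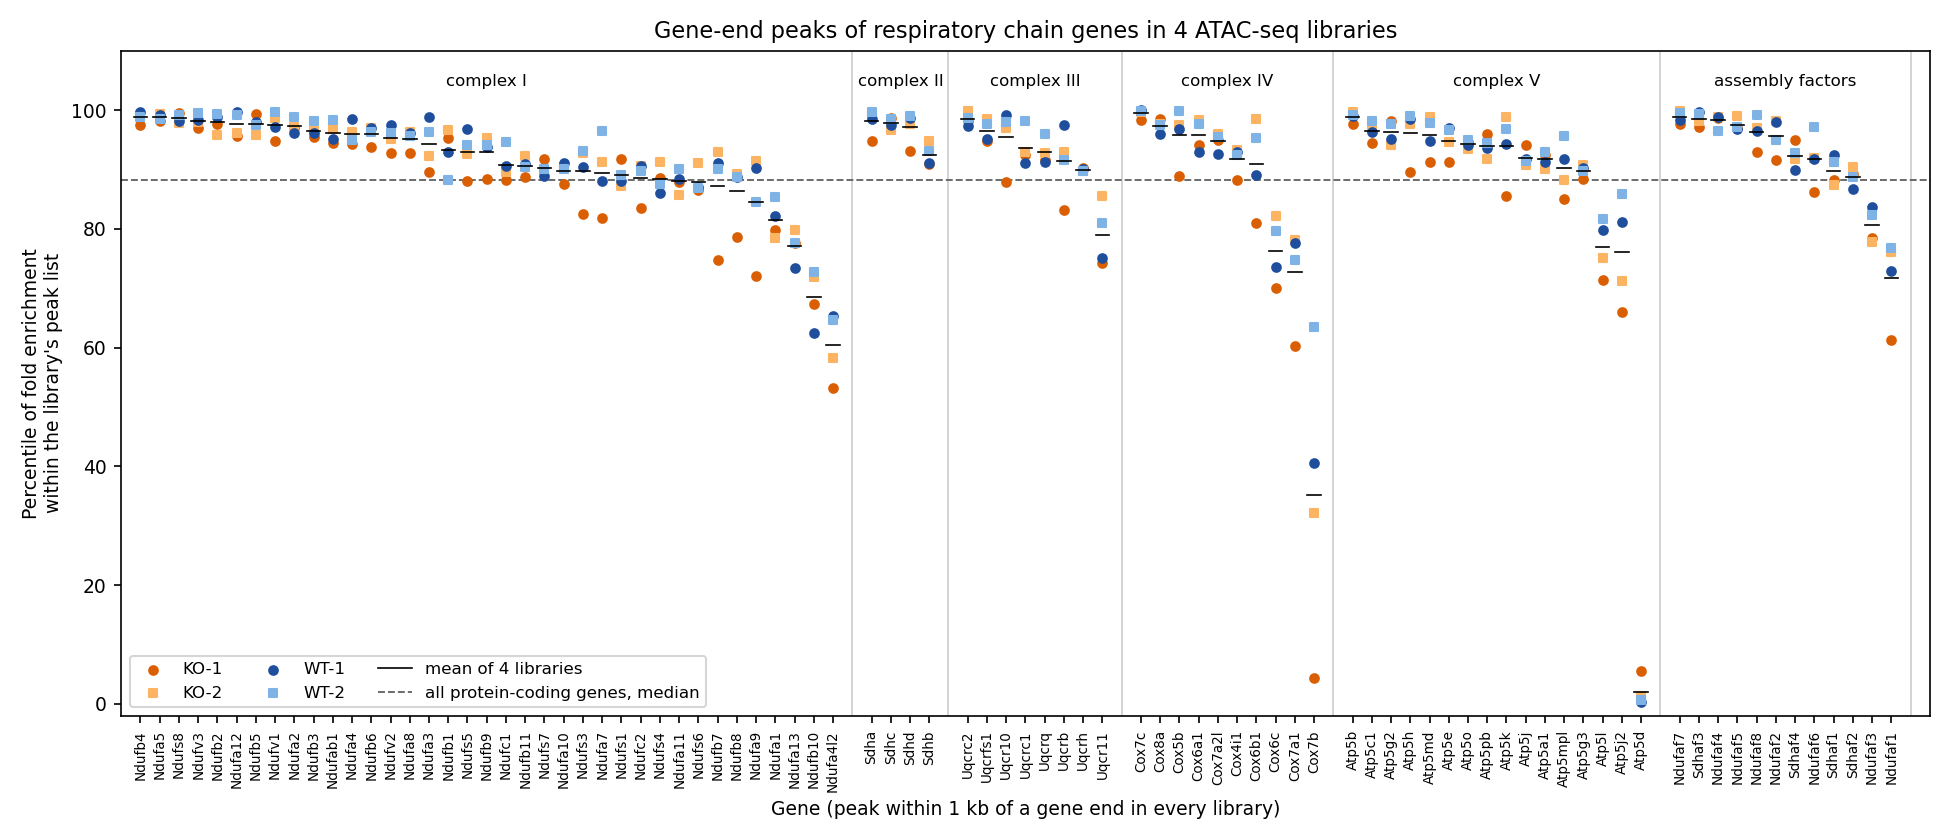
Percentile of the strongest gene-end peak (y axis, within the library's own list) for the 87 genes occupied in every library (x axis, grouped by complex and sorted by mean). Points are the 4 libraries, short bars their mean, and the dashed line the mean over libraries of the all-gene median. Most genes lie above 80, while Cox7b and Atp5d fall far below the rest.

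Complex I, the entry point for electrons from NADH, had 37 of 41 genes occupied in all 4 libraries and a median percentile of 92.4 ± 1.90 (SD over libraries, n = 4). Its core subunits, which carry the flavin and the iron-sulfur clusters, included some of the strongest peaks and some near the all-gene median. Ndufv1, the subunit that binds NADH through a flavin, was at 94.9, 98.6, 97.2 and 99.6. Ndufs8, an iron-sulfur subunit, was at 99.5, 97.8, 98.1 and 99.1. Both stayed above 94 in every library. Ndufs1, the largest iron-sulfur subunit, was lower at 91.8, 87.3, 88.1 and 89.1, close to the all-gene median. Ndufv2 had a mean of 95.4, and Ndufs7 and Ndufs3 had means of 90.2 and 89.7. Among accessory subunits, which surround the core, Ndufb4 stood at 97.4, 99.1, 99.7 and 98.9, and Ndufa5 at 98.1, 99.3, 99.2 and 98.5. Ndufa5 shared a gene-end region with Asb15. Ndufb10, which lies in the membrane arm, was the weakest of the occupied accessory subunits other than Ndufa4l2, at 67.3, 71.8, 62.4 and 72.7. By mean percentile the complex ran from 60.4 to 98.8, a wider range than any of these genes showed over the 4 libraries.

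Complex II oxidises succinate and is also an enzyme of the tricarboxylic acid cycle. All 4 of its genes were occupied in every library, with a median of 97.0 ± 2.09 (SD, n = 4). Sdha, the flavoprotein subunit, was at 94.9, 99.2, 98.5 and 99.7. Sdhc and Sdhd, the membrane anchors, averaged 97.8 and 97.1. Sdhb, the iron-sulfur subunit, was the lowest of the complex at 90.9, 94.9, 91.1 and 93.1. The 4 genes together ranked near the top of each list.

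Complex III had 8 of 8 genes occupied in every library and a median of 93.4 ± 2.45 (SD, n = 4). Uqcrc2, a core protein, was its strongest gene at 98.1, 99.9, 97.4 and 98.7. Uqcrfs1, the Rieske iron-sulfur protein, followed at 94.8, 98.6, 95.1 and 97.6. Uqcr11, a small accessory subunit, was the weakest at 74.2, 85.5, 75.2 and 81.0, below the all-gene median in every library. Uqcrh, the hinge protein, varied least within the complex, between 89.7 and 90.2.

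Complex V had 16 of 17 genes occupied in every library and a median of 93.3 ± 1.71 (SD, n = 4). Atp5b stood at 97.6, 99.8, 99.0 and 99.2, and Atp5c1, the gamma subunit of the rotor, at 94.5, 97.0, 96.4 and 98.2. Atp5a1, the alpha subunit that alternates with beta in the catalytic head, was at 92.4, 90.1, 91.3 and 93.0. The membrane ring of the ATP synthase is built of subunit c, which is encoded by the genes Atp5g1, Atp5g2 and Atp5g3 with different import sequences. Atp5g2 was at 98.1, 94.1, 95.1 and 97.6 and Atp5g3 at 88.3, 90.7, 90.2 and 89.8, while Atp5g1 had no gene-end peak in any list. Atp5l and Atp5j2, the membrane subunits g and f, were weaker, with means of 77.0 and 76.0.

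The assembly factors, which help to build complexes I and II and are not part of the finished enzymes, were occupied for 12 of 12 genes with a median of 94.2 ± 1.43 (SD, n = 4). Ndufaf7, a methyltransferase needed to build complex I, stood at 97.6, 99.8, 98.3 and 99.6, but its start lies close to that of Cebpz and the region belongs to both genes. Ndufaf1, a complex I assembly factor with no such neighbour, was the weakest at 61.3, 76.1, 72.9 and 76.7. KO-1 was the low library for this gene.

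Some gene-end regions were shared with a neighbour. Either end of either gene counted, so a shared region need not be a promoter. A gene-end region was shared with another protein-coding gene for 46 of the 100 members and for 44 of the 87. The share over all protein-coding genes was not counted, so whether this is frequent cannot be judged. Examples are Sdhd with Timm8b, which encodes an intermembrane-space chaperone, Atp5j with Gabpa, which encodes the DNA-binding subunit of GABP, and Ndufb5 with Mrpl47 of the mitochondrial ribosome. The signal at such a region cannot be assigned to 1 of the genes. The median mean percentile was 94.6 for the 44 members that shared a region and 92.4 for those that did not. Without the members that share a region, 43 of 54 were occupied in all 4 libraries. A member with no gene-end region cannot share one, so all such members stay among the 54. This lowers the share by construction, and the all-gene share was not counted.

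Complex IV was the exception, with 10 of 18 genes occupied in every library, 4 in some and 4 in none. Its occupied genes had a median of 92.1 ± 2.45 (SD, n = 4), close to 92.4 for complex I, and were below complex II in every library. Without the tissue-restricted isoforms the median was 93.35 ± 3.24 (SD, n = 4), against 92.76 for complex I and 93.26 for complex V. Cox7c, a small membrane subunit with no isoform pair in the list, was the strongest of all members at 98.3, 99.6, 99.96 and 99.8. Cox5b, the zinc-binding subunit, was at 88.9, 97.6, 96.9 and 99.9. Cox6c was weaker at 70.0, 82.1, 73.6 and 79.7. The unoccupied genes were mostly isoforms known from heart, skeletal muscle, lung or testis.

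Tissue-restricted isoforms were open less often than their ubiquitous counterparts in these lists. Of 9 such isoforms, 2 were occupied in every library (22.2%, against 50.6% of all genes), 2 in some and 5 in none (55.6%, against 40.1%). Cox6a2 and Cox8b, the isoforms of heart and skeletal muscle, and Cox7b2 and Cox8c, known from testis, had no gene-end peak in any library. Neither did Ndufb4c, a short gene named after Ndufb4. It was counted among the 9, although no tissue is given for it here. Whether reads could be placed uniquely at this gene was not tested. Cox4i2, the lung isoform, had a weak peak in WT-2 at percentile 8.92 and none elsewhere. Cox6b2, a testis isoform, had none in KO-1 and stood at 59.3, 60.1 and 69.0 in the other libraries. The isoforms occupied in every library were Cox7a1, a muscle form, at 60.2, 78.1, 77.6 and 74.7, and Ndufa4l2, a hypoxia-induced relative of Ndufa4, at 53.2, 58.3, 65.2 and 64.7. Both lay below the all-gene median in each library, and the Ndufa4l2 region was shared with Stac3.

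The 8 ubiquitous counterparts were occupied in every library with 1 exception at the gene ends. Cox8a was at 98.6, 97.6, 95.9 and 97.4. Cox6a1 was at 94.1, 98.3, 93.0 and 97.7, and Cox4i1 at 88.1, 93.4, 93.0 and 92.5. Their isoforms Cox8b, Cox8c and Cox6a2 had no gene-end peak, and Cox4i2 had one in WT-2 alone. Ndufa4, a protein first assigned to complex I and later also found in complex IV, lay between 94.2 and 98.6, above Ndufa4l2 in every library. Cox7b was the weak one, at 4.38, 32.1, 40.6 and 63.4, which is 35.1 ± 24.4 (SD, n = 4). Cox7a2 was the exception, with a gene-end peak in KO-2 alone.

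**Figure D2:**
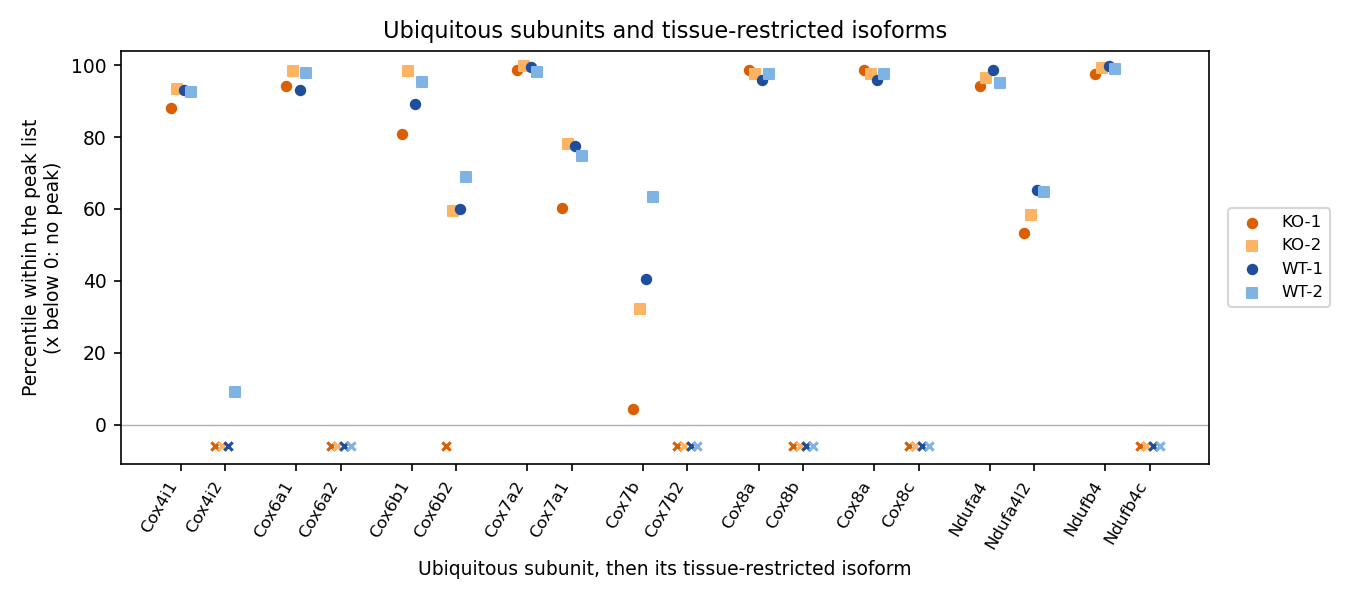
Percentile of the peak at the annotated start, or at a gene end where no start is given (y axis), for each ubiquitous subunit and, to its right, its tissue-restricted isoform (x axis, 9 pairs, with Cox8a drawn in both of its pairs). Crosses below 0 mark a library with no peak. Counterparts other than Cox7b lie above 80, whereas the isoforms reach 78.1 at most.

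For a few members the interval ends were not the promoter. Cox5a, Cox7a2 and Atp5d have intervals that extend upstream of the start in the promoter table. At the annotated start of Cox7a2 every library had a strong peak, at 98.8, 99.6, 99.5 and 98.2. At that of Cox5a, a subunit on the matrix side, the values were 80.2, 88.8, 92.1 and 93.9. Atp5d, the delta subunit, was the lowest member at its gene ends, at 5.50, 1.24, 0.382 and 0.553, with a region shared with Cbarp, but its annotated start was at 73.2, 72.5, 77.5 and 82.5. Taking a gene end or an annotated start, 89 of 100 members were occupied in all 4 libraries, against 53.4% of all genes.

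The members with no gene-end peak in any list were Atp5g1, Ndufa6, Ndufb4b, Ndufb4c, Cox6a2, Cox7b2, Cox8b and Cox8c. Ndufa6, an accessory subunit of complex I, and Atp5g1 are expressed in most tissues, unlike the Cox isoforms among them. The nearest region lay 25328 bp from Ndufa6 and 13803 bp from Atp5g1, and each had a peak in every library. Whether peaks at these genes were among the numbers absent from the lists was not tested. Ndufb4b, like Ndufb4c a short gene, was 18494 bp from its nearest region.

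Other constitutive gene groups were also occupied at most of their gene ends. Of 42 further chain and assembly genes, such as Cyc1, Cycs and Surf1, 41 were occupied in every library with a median percentile of 93.8 ± 1.67 (SD, n = 4). For the tricarboxylic acid cycle 13 of 14 genes were occupied, with 92.5 ± 1.08, and for mitochondrial ribosomal proteins 75 of 78, with 91.4 ± 1.79. Cytosolic ribosomal proteins had 85 of 97 genes occupied and a median of 91.6 ± 1.34. Regulators of the chain, such as Nrf1, Gabpa and Tfam, had 18 of 20 occupied with 90.9 ± 2.05. The respiratory chain median over 4 libraries, 93.1 ± 1.49 (SD, n = 4), was above that of both ribosomal lists and the regulators in every library, and above or below the other 2 lists depending on the library. The CD4 T cell markers were occupied in full but with a lower median of 74.4 ± 5.71 (SD, n = 4).

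**Figure D3:**
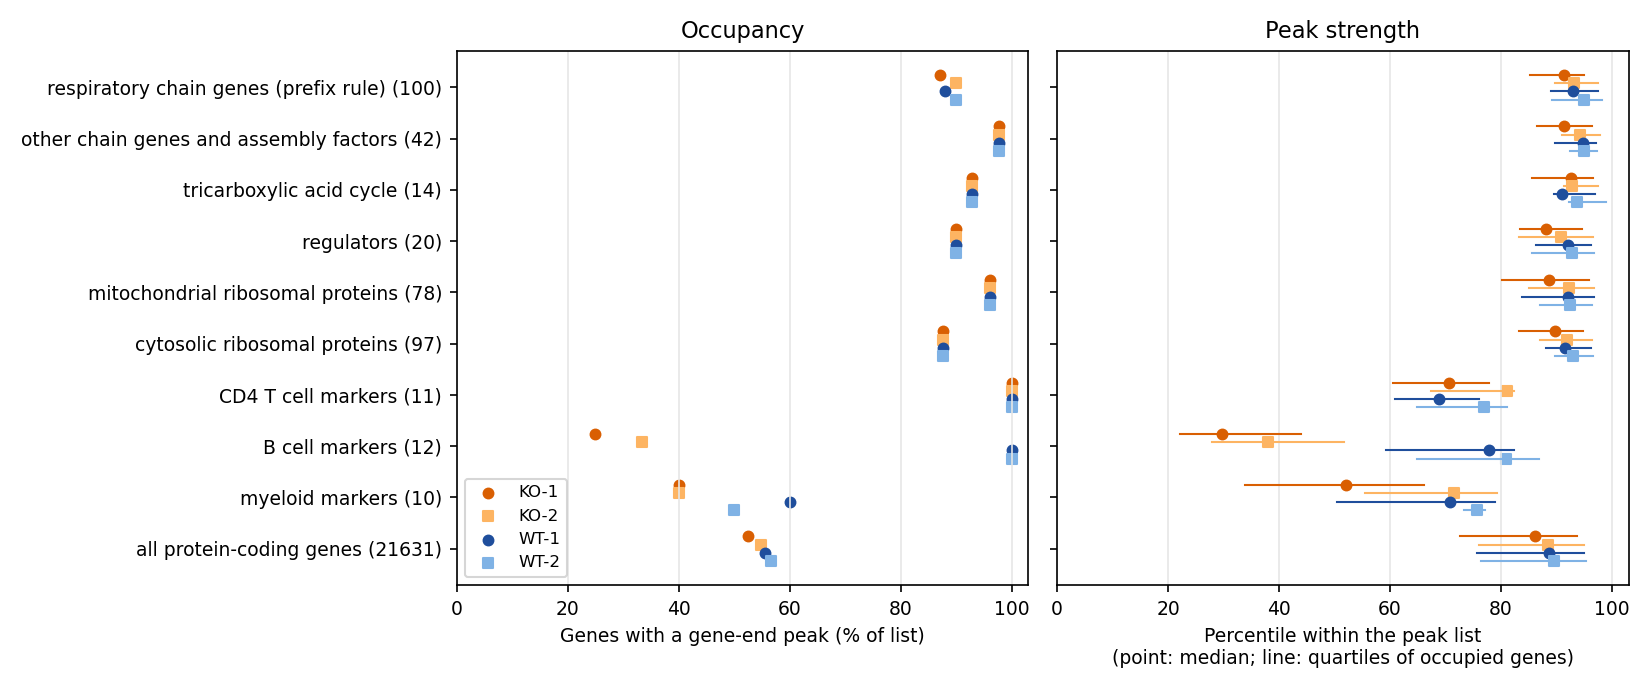
Left, share of each gene list with a gene-end peak (x axis, percent) in the 4 libraries; right, median percentile of the occupied genes (points) with the quartiles (lines). The respiratory chain lies at 87% to 90% in each library and near the other constitutive groups, while the B cell markers separate the WT libraries from the KO libraries.

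The promoter table gave 87 windows for 82 of the 100 members, each from 250 bases before to 50 after an annotated start. A peak in all 4 libraries overlapped 81 of the 87 windows (93.1%), against 46.8% of all 21045 windows. In these the peak summit was 43, 43, 44 and 48 bp from the start at the median, against 63 or 64 bp over all genes. The summit lay within 100 bp of the start in 72.8%, 70.4%, 70.4% and 67.9% of member windows, against between 64.3% and 64.8% of all windows. Summits of members were thus nearer to the start than those of all genes in each library. Cytosolic ribosomal protein windows were as near or nearer, at 43, 37, 37 and 34 bp. Of these, 72.0%, 73.3%, 78.7% and 77.3% had the summit within 100 bp. Mitochondrial ribosomal protein windows were at 52.5, 58, 56 and 56.5 bp, with between 69.4% and 72.2% within 100 bp. At Cox7c they lay at -2, -17, -9 and -9 bp relative to the start, within the bases printed above, and at Sdha at -30 bp in all 4 libraries.

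Several motif letters were more frequent in the open windows of members than in those of all genes. Letters for NRF1 with any sixth base, a form added after the data were seen, were in 21 of 81 open member windows (25.9%), against 12.2% of 9856 open windows of all genes and 1.19% of windows with no peak. The strict palindrome GCGCATGCGC, which is contained in that form, was in 8.64% against 2.54%. ERR letters were in 9.88% against 2.57%, YY1 in 14.8% against 7.53%, ETS in 27.2% against 21.1% and TATAAA in 9.88% against 5.37%. Windows with no peak held ERR letters in 5.78%, TATAAA in 20.5%, YY1 in 5.44% and ETS in 3.08%, so ERR and TATAAA were more frequent there than in open windows of all genes. YY1 and ETS letters were also frequent at ribosomal protein genes. Over all their windows, open or not, cytosolic and mitochondrial ribosomal genes held YY1 letters in 14.4% and 17.3% and ETS letters in 28.9% and 34.7%, against 13.8% and 25.3% for all member windows. ERR letters were in 7.78% and 5.33% of these ribosomal windows, against 9.20% of member windows. For TATAAA the shares were 10% and 6.67%, against 11.5%. In open ribosomal windows the ERR shares were 6.67% and 5.56%, also above the 2.57% of all open windows. The CRE letters TGACGTCA were in 4.94% against 3.65%, and CCAAT in 39.5% against 39.0%. SP letters were less frequent, in 45.7% against 70.2%. Over all windows, open or not, they were in 46.0% of member windows and 46.7% of those of all genes. Cytosolic and mitochondrial ribosomal windows, open or not, held them in 56.7% and 52.0%. No test was made of these shares, and the GC content of the open windows also differed, with a median of 59.0% for members and 62.3% for all genes.

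**Figure D4:**
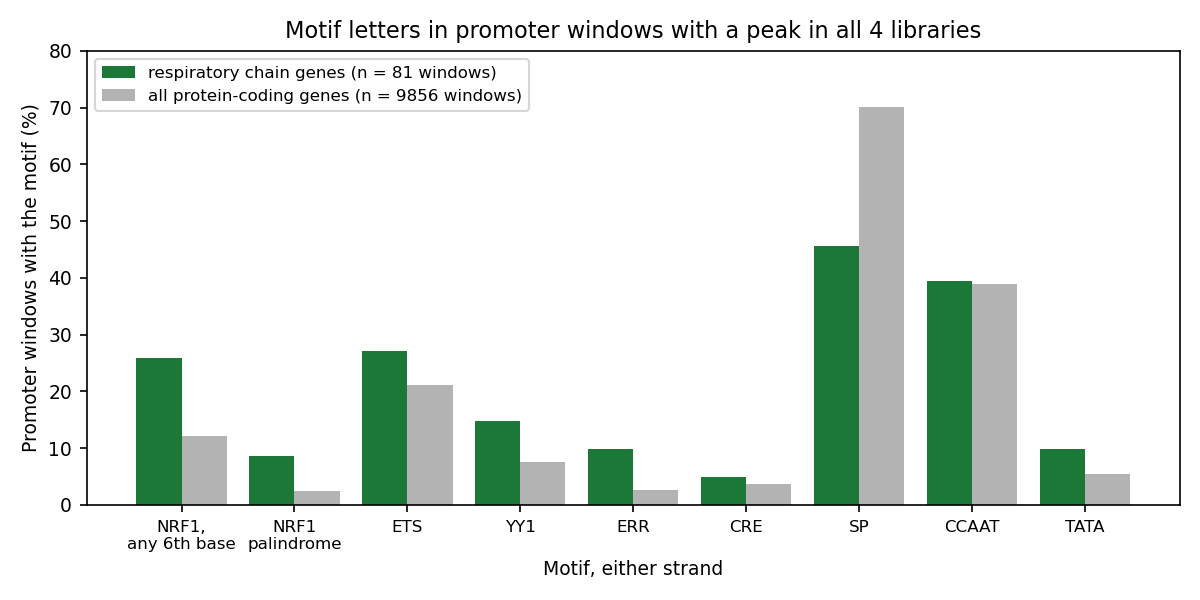
Share of promoter windows with a peak in all 4 libraries that hold each motif on either strand (y axis, percent) for the 81 member windows and the 9856 windows of all protein-coding genes. NRF1, YY1 and ERR bars are taller for members, the SP bar is taller for all genes, and the CCAAT bars are about level.

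NRF1 matches that lay wholly upstream began between 191 and 10 bases before the start, and Sdha, Ndufb4 and Cox6a1 held more than 1. The stretches below are printed because they show the spacing and the variable sixth base; each carries its match in capitals with up to 15 flanking bases on either side, 5′ to 3′ on the gene's strand, from RefSeq on GRCm38.p6. The first base of the match was 98, 55 and 10 bases before the start of Sdha, 162 and 117 before that of Cox6a1, the ubiquitous partner of Cox6a2, 113 before that of Ndufaf4 and 42 before that of Atp5g2.
Sdha: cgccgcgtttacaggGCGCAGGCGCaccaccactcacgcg
Sdha: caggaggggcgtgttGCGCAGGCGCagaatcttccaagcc
Sdha: cccgcgcgactcggtGCGCAAGCGC
Cox6a1: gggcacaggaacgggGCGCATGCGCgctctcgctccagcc
Cox6a1: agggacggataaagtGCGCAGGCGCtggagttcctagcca
Ndufaf4: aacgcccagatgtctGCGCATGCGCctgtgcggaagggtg
Atp5g2: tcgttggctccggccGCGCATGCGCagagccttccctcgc

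Their coordinates were chr13:74350314-74350353, chr13:74350271-74350310 and chr13:74350241-74350265 for Sdha, chr5:115349096-115349135 and chr5:115349051-115349090 for Cox6a1 and chr15:102671065-102671104 for Atp5g2, all on the minus strand, and chr4:24897955-24897994 on the plus strand for Ndufaf4. The strict palindrome was found in the windows of Atp5g2, Atp5k, Cox6a1, Ndufa11, Ndufaf4, Ndufaf5 and Uqcrc1, which belong to complexes I, III, IV and V and to the assembly factors. Member windows with the wider NRF1 letters had a median percentile of 96.2 and those without 92.0. Over all open windows the values were 92.1 and 89.5, a step in the same direction. For YY1 letters the member values were 90.5 with and 94.9 without, and for ETS letters 93.2 and 94.3, both opposite in direction to all open windows (91.5 and 89.7 for YY1, 92.1 and 89.1 for ETS). Mitochondrial ribosomal protein windows with a peak in all 4 libraries held the wider NRF1 letters in 18.1% and cytosolic ribosomal ones in 8%.

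ERR letters were found in 8 members: Atp5e, Atp5g3, Atp5k, Atp5l, Ndufb2, Ndufb4, Ndufs5 and Sdhd. The 3 stretches below show them as AAGGTCA on the gene's strand, or as TGACCTT where the match is on the other strand, again with 15 flanking bases. They lay 181 bases before the start of Ndufb2, 55 before that of Ndufb4 and 52 before that of Atp5g3, at chr6:39592369-39592405 (plus), chr16:37654402-37654438 (minus) and chr2:73911357-73911393 (minus).
Ndufb2: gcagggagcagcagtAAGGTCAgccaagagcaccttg
Ndufb4: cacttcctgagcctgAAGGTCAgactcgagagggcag
Atp5g3: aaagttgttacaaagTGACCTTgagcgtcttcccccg

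Member windows with ERR letters had a median percentile of 94.4 and those without 94.0. A match is a description of the letters only, and binding of these factors was not measured.

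Few regions around the members were open in 1 genotype alone. The merged regions assigned to members, by the nearest gene interval within 100 kb, numbered 190, of which 114, 140, 134 and 144 held a peak of the respective library. A WT-only region is one found in both WT lists but not in a KO list, and a KO-only region the opposite. Of the 190, 8 (4.21%) were WT-only, against 9.65% of all 82780 assigned regions. The KO-only regions numbered 1 (0.526%), against 1.88%. Within 1 kb of any gene end, 1 of 82 member regions was WT-only (4.79% of such regions over all genes), and farther away 7 of 108 were (10.8%). For KO-only regions the counts were 0 of 82 (0.807%) and 1 of 108 (2.13%). Among the 20000 strongest peaks of each library the counts were 1 WT-only region (1.05%, against 8.39% of all) and 2 KO-only regions (2.11%, against 6.02%). These counts depend on each library: the WT-only count was 9 without KO-1, 22 without KO-2, 23 without WT-1 and 23 without WT-2, since fewer libraries then have to meet the rule. As shares these are 4.97%, 12.4%, 12.9% and 12.99% of member regions, against 11.2%, 18.7%, 24.0% and 21.4% of all. The KO-only count was 20 (11.05%, against 18.03%) without KO-1, 12 (6.78%, against 10.1%) without KO-2, 2 (1.12%, against 3.02%) without WT-1 and 2 (1.13%, against 4.04%) without WT-2. B cell markers, for which 11, 19, 97 and 106 regions had a peak, and myeloid markers, with 25, 40, 59 and 65, also differed between these libraries. Of 84 myeloid marker regions 27 (32.1%) were WT-only. The part of either in the member regions was not tested.

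The WT-only region nearest to a gene end lay inside Ndufab1, the mitochondrial acyl carrier protein, at chr7:122086956-122088011, 141 bp from the gene's far end. Its fold enrichment in the WT libraries was 6.42 and 5.41. Ndufab1 had another WT-only region within the gene, and Ndufaf2, a complex I assembly factor, had 2. The strongest WT-only region lay 12140 bp outside Sdhaf4, an assembly factor of complex II, at chr1:23983101-23983799, with folds of 8.83 and 6.36. The one assigned to Ndufb4 was 34949 bp away from the gene, with folds of 6.38 and 4.71. Those of Ndufa9 and Atp5o were weak, with WT folds of 2.60 and 2.97 and of 2.53 and 3.02. The KO-only region lay 14107 bp from Sdhaf1, at chr7:30336482-30336637, with a fold of 2.95 in each KO library. The gene ends of these 7 genes were occupied in all 4 libraries.

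To compare strength between genotypes on 1 scale, gene-end regions were ranked within each library over the 26867 regions with a peak in every library. Both WT libraries ranked the region above both KO libraries for 19 of 87 members (21.8%), against 24.2% of 10885 genes with such a region. Both KO libraries were above both WT libraries for 12 members (13.8%), against 12.5%. The groups overlapped for the other 56. The median WT minus KO difference was 1.46 percentile points for members and 1.24 for all these genes. With a library left out, fewer have to meet the rule. The first count was then 35 without KO-1, 43 without KO-2, 33 without WT-1 and 31 without WT-2. These are 40.2%, 49.4%, 37.9% and 35.6% of members, against 52.4%, 37.8%, 38.1% and 36.6% of all genes, so members were below the background without KO-1 and above it without KO-2. The second count was 26, 28, 17 and 23 in the same order, or 29.9%, 32.2%, 19.5% and 26.4%, against 23.3%, 38.6%, 22.8% and 23.6%. The B cell marker difference given above runs along the same groups, and its part was not tested here either. Ranked over gene-end regions alone, 17 members were higher in WT (18.5% of genes) and 16 in KO (18.1%). By complex, the higher-in-WT and higher-in-KO counts were 7 and 5 of 37 for complex I, 5 and 1 of 16 for complex V, 3 and 2 of 12 for assembly factors, 2 and 2 of 10 for complex IV, and 1 and 1 for both complex II and complex III. The complex V gene higher in KO was Atp5d, by a very weak region away from its annotated start. That region ranked at 2.13 and 0.220 in KO and at 0.0447 and 0.112 in WT. At the annotated start the percentile within each list was 73.2 and 72.5 in KO and 77.5 and 82.5 in WT.

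The 5 members with the largest difference toward WT were Atp5j2, Ndufa4l2, Cox7b, Atp5mpl and Ndufa3. Atp5j2 ranked at 46.6 and 37.0 in the KO libraries and at 62.0 and 68.6 in the WT libraries, a difference of 23.5 points between the group means. Ndufa4l2 ranked at 11.1 and 18.4 in KO and at 37.0 and 32.0 in WT, a difference of 19.7. Cox7b ranked at 1.64 and 3.93 in KO and at 12.4 and 30.3 in WT. All 3 were below rank 50 in both KO libraries. Atp5mpl, a small membrane subunit of the ATP synthase, ranked at 76.0 and 73.0 in KO and at 82.8 and 90.1 in WT. Ndufa3, an accessory subunit of complex I, ranked at 83.4 and 82.3 in KO and at 97.6 and 91.8 in WT, with a region that also covers an end of Oscar.

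The 5 members with the largest difference toward KO were Ndufb1, Ndufs4, Ndufa13, Ndufs6 and Sdhaf2. Ndufb1, an accessory subunit whose region is shared with Cpsf2, ranked at 92.5 and 92.3 in KO and at 85.3 and 73.6 in WT, a difference of -13.0 points. Ndufs4, an accessory subunit whose loss is known to cause Leigh-like disease, ranked at 81.7 and 79.8 in KO and at 71.2 and 72.1 in WT. Ndufa13, also known as GRIM-19, ranked at 64.3 and 54.3 in KO and at 49.0 and 52.9 in WT, and here the gap between the groups was the narrowest of the 5. Ndufs6 ranked at 78.4 and 79.4 in KO and at 73.1 and 70.6 in WT. Sdhaf2, which helps to insert the flavin into Sdha, ranked at 82.8 and 78.2 in KO and at 72.7 and 74.7 in WT. Ndufa13, Ndufs6 and Sdhaf2 also shared a gene-end region with a neighbour, namely Tssk6, Mrpl36 and Cpsf7 in that order.

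**Figure D5:**
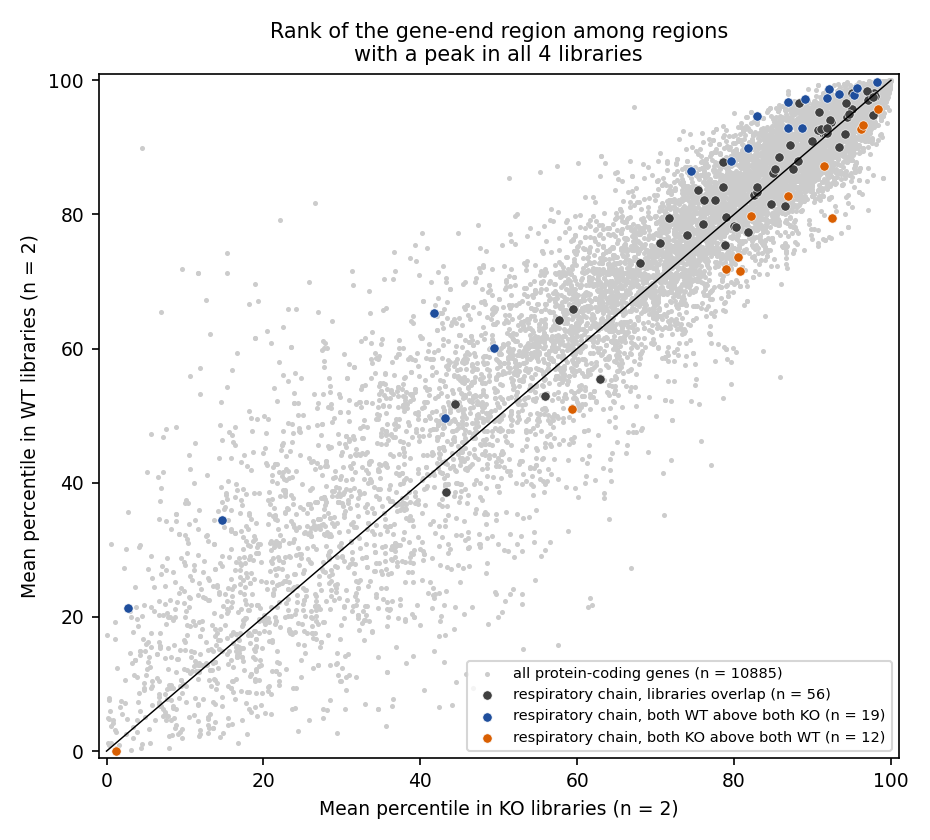
Mean percentile of the gene-end region among regions with a peak in every library, in the KO libraries (x axis, n = 2) and the WT libraries (y axis, n = 2), for 10885 protein-coding genes (grey) and 87 respiratory chain genes (coloured by whether the groups overlap). The members follow the diagonal with all other genes, and Atp5j2, Ndufa4l2 and Cox7b lie farthest above it among them.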

How the data were processed

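Peak lists from ATAC-seq of 2 KO and 2 WT libraries were used, with sample groups and replicate numbers as labelled. The labels' protocols describe frozen sorted cells that were thawed, lysed and transposed (42 °C, 45 min), and paired-end sequencing of 50 bp. BWA, SAMtools, Picard, MACS2 and deepTools, with the builds GRCm38 and mm10 (2 names for 1 assembly), are listed per the submitters' processing notes. Their versions and settings, any shift of reads for the transposase, and the filters are not given in the sources used. The authors deposited 1 list of 10 columns for each library. Its fold enrichment, as the authors deposited it, is a ratio of a peak over the background that the caller modelled. The authors' −log10 p and −log10 q columns give the strength of evidence for a peak. The deposited score and other columns hold a display value, the summit offset and names, and only the summit offset was used. Depth is unknown, so no counting interval was set.

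Peaks overlapping by 1 bp were merged into regions and assigned to the nearest protein-coding interval of the RefSeq table (GRCm38.p6) within 100 kb. Percentiles are mid-ranks of the fold within a list, and the strongest peak within 1 kb of a gene end stands for a gene. Promoter windows and strand came from RefSeq for 82 members. No test was run, and counts and medians stand beside those of all genes. The genes named were members unoccupied, partly occupied or with a genotype-specific region, the 5 highest and 5 lowest by mean percentile, the 5 largest differences each way among members whose groups did not overlap, and tissue-restricted isoforms. Of the genes so selected, 1 is not reported here. Other members were named as examples of their complex after their values were seen. The members and lists were chosen with earlier results of these data known. Trac of the T cell list is not in the gene table. Same-numbered libraries did not deviate together (r = -0.033 over the 26867 regions with a peak in every library), so replicate numbers were not used as pairs. Alternatives covered distance, threshold, list length, strength measure, ranking set, assignment and replicates. Scripts were tested on simulated data. Python 3.11.15, pandas 2.3.3, numpy 2.4.6 and matplotlib 3.10.9 were used.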

Additional observations from a re-analysis of the deposited data

How the results depend on the processing

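The count of 87 members occupied in all 4 libraries became 83 to 89 under other distances, peak thresholds, list lengths and gene starts. It was 87 or 88 with a library left out and 76 of 82 members at the annotated start alone. Without members that share a region it was 43 of 54, a share that is lower by construction. Members with no gene-end region cannot share one, so none of them was left out. The median percentile, 94.0 in WT and 92.3 in KO, was 87.4 and 85.5 among regions with a peak in every library (79.4 and 77.8 for all genes), 84.0 and 82.3 within the 20000 strongest peaks, and 76.8 and 73.2 among gene-end peaks (60.8 and 59.3 for all genes). Complex II was at 94.2 by −log10 q in place of 97.0, and Atp5d at 44.3 in place of 1.92. The other complexes moved by less than their spread.

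The 8 WT-only regions became 1 in the 20000 strongest peaks, 5 with assignment within 10 kb, and 9 to 23 with a library left out. The 1 KO-only region became 2 in the 20000 strongest peaks, 0 at a −log10 q of at least 10, 0 within 10 kb, and 2 to 20 with a library left out. Members ranked higher in WT, 19, became 31 to 43 with a library left out (35.6% to 49.4%, against 36.6% to 52.4% of all genes), and those ranked higher in KO, 12, became 17 to 28 (19.5% to 32.2%, against 22.8% to 38.6%), since fewer libraries have to meet the rule. With the replicate block, the direction within each replicate number, they were 28 (32.2%, against 32.9% of all genes) and 18 (20.7%, against 18.7%). The annotated start beside gene ends and the wider NRF1 letters were chosen after seeing the data. Depth is unknown, and the lists alone cannot separate a weak peak from a shallow library.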
